A study of Homo sapiens with 24 samples.

Results

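Amino acid transporters of the plasma membrane were followed as 10 genes, SLC7A11, SLC7A5, SLC3A2, SLC7A1, SLC1A4, SLC1A5, SLC38A1, SLC38A2, SLC6A9 and SLC43A1. The genes were taken by symbol from the count tables of both cell lines, where they are 10 of 25168 genes. RNA was sequenced from PANC1 and BXPC3, established human pancreatic ductal adenocarcinoma lines, which were grown in low-glucose DMEM with serum. Cells of each line received SR4 at 5 μM, lonidamine at 300 μM, both compounds together, or vehicle, and were harvested after 24 h. SR4 is known here by its code name only, and lonidamine is an inhibitor of the mitochondrial pyruvate carrier, lactate export and respiratory complex II. The doses within the combination are not stated separately, and the comparisons of the combination with each single compound take them to be the same. Each of the 8 groups held 3 libraries, for 24 in all. The labels do not say whether the 3 libraries of a group came from separate cultures, so the p-values measure the spread between these libraries, which may be technical.

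Mammalian cells import amino acids through carriers that divide the work by substrate and by mechanism. Some are light chains that reach the cell surface only when bound to a shared heavy chain, some exchange one amino acid for another, and some use the sodium gradient to concentrate their substrate. When amino acids run short or the endoplasmic reticulum or mitochondria are stressed, kinases that phosphorylate eIF2alpha favour translation of the transcription factor ATF4. ATF4 with C/EBP partners binds composite elements of the form TGATGNAA near many transporter and biosynthesis genes, and pancreatic cancer cells rely on cystine and glutamine import for glutathione and for carbon and nitrogen.

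Every library placed all 10 transporters in the same direction in BXPC3. All 10 rose after SR4, after lonidamine and after the combination, with every treated library above every vehicle library. In PANC1 the same held for SLC7A11, SLC3A2, SLC7A1, SLC1A4, SLC1A5, SLC38A1, SLC38A2 and SLC6A9. The exception was SLC7A5, the light chain of the large neutral amino acid transporter LAT1. It rose after lonidamine, fell slightly after SR4, at -0.10 log2, and fell further after the combination, at -0.83 log2. SLC43A1 was near the detection limit in PANC1 and is given apart. How many of all genes have every treated library above every vehicle library was not counted. Over all genes tested in BXPC3, 33.4%, 34.8% and 39.7% were called higher after SR4, lonidamine and the combination. In PANC1 these shares were 35%, 35% and 40.1%.

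Levels are CPM, the counts of a gene relative to the total of its library, scaled by the trimmed mean of M-values, and changes are log2 differences with their standard error from edgeR's quasi-likelihood test, with p-values adjusted by Benjamini-Hochberg over all genes tested and called at 0.05. In PANC1, 9 transporters reached the level of the low-count filter in all 4 groups. Of these, 8 rose and 1 fell after SR4, all 9 rose after lonidamine, and 8 rose and 1 fell after the combination. Over all 12514 genes tested in PANC1, 35% were called higher and 36.7% lower after SR4, 35% higher and 34.2% lower after lonidamine, and 40.1% higher and 40.9% lower after the combination. The median change of the 9 transporters was 1.31 after SR4, 1.25 after lonidamine and 1.03 after the combination, where the median of all genes was -0.02, 0.01 and -0.02. In BXPC3 all 10 transporters were called higher in each comparison. Over the 12920 genes tested there, 33.4% were called higher and 33.9% lower after SR4, 34.8% higher and 32.7% lower after lonidamine, and 39.7% higher and 39.5% lower after the combination. The median change of the 10 transporters in BXPC3 was 1.37, 1.89 and 1.58 after SR4, lonidamine and the combination, and the median of all genes was 0.01, 0.03 and 0.00. Between 32.7% and 40.9% of all genes thus passed the test in each direction, so a call alone sets a transporter apart from few other genes. The transporters were chosen with earlier results of these data known, so their counts and medians beside those of all genes are descriptions. The summed CPM of the 10 genes in PANC1 was 3096 ± 72.3 after SR4, 3762 ± 34.5 after lonidamine and 3065 ± 44.1 after the combination, against 1708 ± 25.8 with vehicle. In BXPC3 it was 6273 ± 78.5, 8805 ± 123 and 7126 ± 41.8 after the same treatments, against 2909 ± 62.2 with vehicle (SD, n = 3 libraries each).

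**Figure D1:**
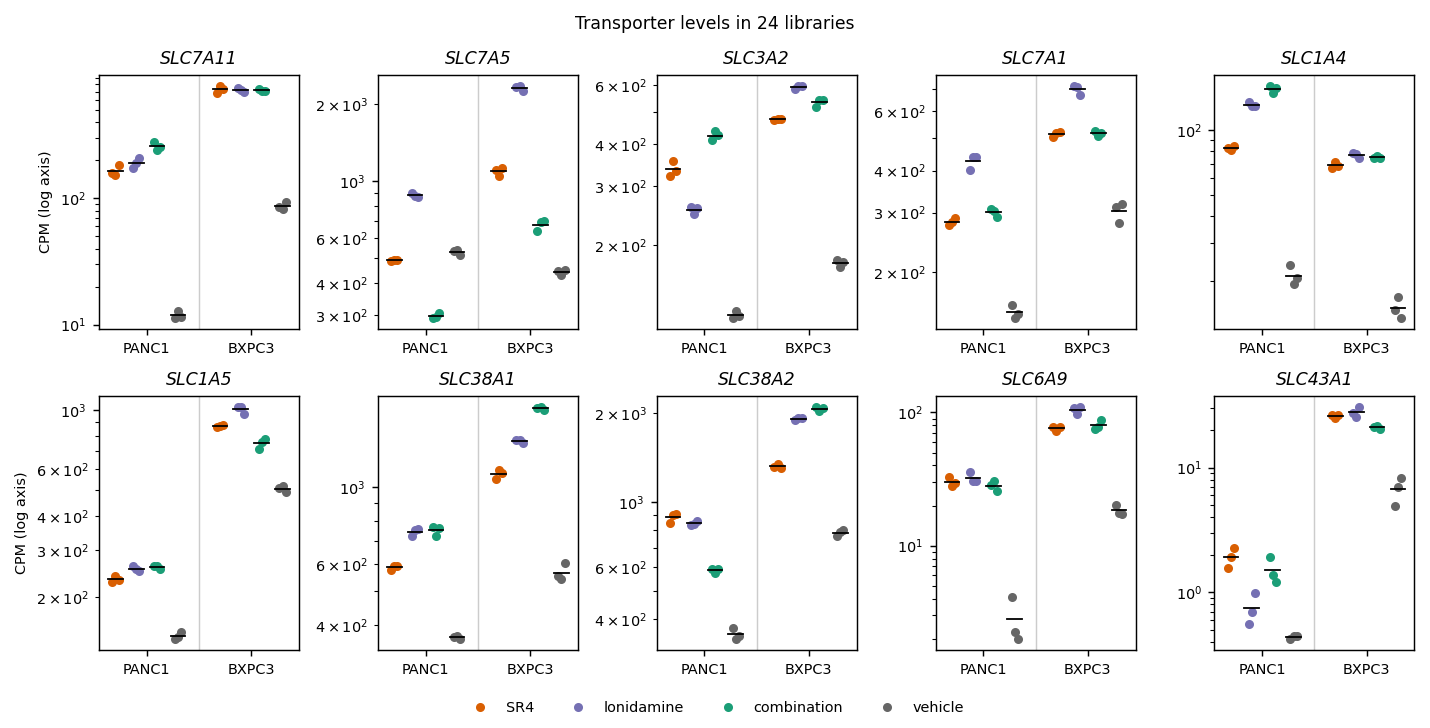
Level of each transporter in every library, in CPM on a log axis, for PANC1 (left of each panel) and BXPC3 (right). Points are libraries, black lines group means of 3. SLC7A5 in PANC1 is the one panel where SR4 and combination libraries lie below the vehicle libraries.

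**Figure D2:**
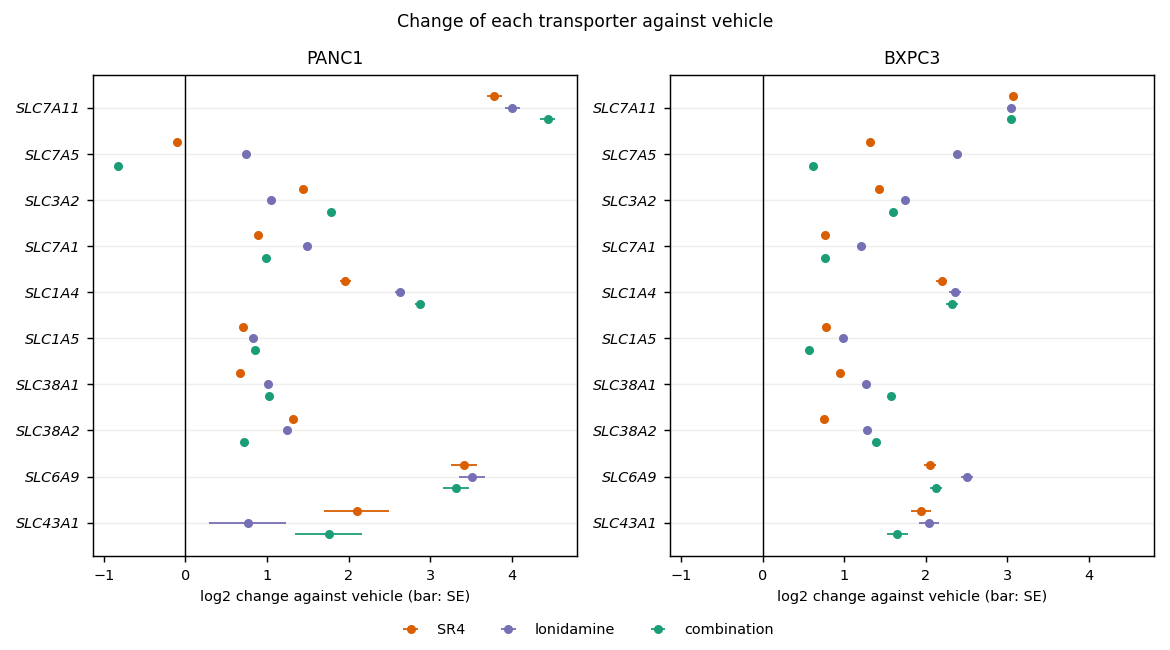
Log2 change of each transporter against vehicle for PANC1 (left) and BXPC3 (right), with bars of 1 standard error. Changes of SLC7A11 lie at 3.05 or more in both lines, and SLC7A5 in PANC1 lies at -0.10 after SR4 and -0.83 after the combination.

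Total counts per library were 8873041 to 11822495 in PANC1 and 9142433 to 11470973 in BXPC3. The line labels were checked with SMAD4, which is deleted in BXPC3: no BXPC3 library held a SMAD4 read, and PANC1 libraries held 49.2 to 142 CPM. The summed level of 8 ductal and epithelial markers was 884 to 2225 CPM in treated PANC1 libraries and 3802 to 3975 with vehicle, and 3614 to 5186 in treated BXPC3 libraries and 6112 to 6624 with vehicle. All 8 were detected in every group, and keratins gave most of the sum. Single markers could go the other way: in BXPC3, SOX9 averaged 95.3, 71.5 and 67.7 CPM after SR4, lonidamine and the combination, against 50.8 with vehicle, EPCAM 291 after the combination, against 213, and KRT7 2379 after SR4, against 1857. In PANC1, MUC1 averaged 15.8 CPM after lonidamine, against 12.3 with vehicle. Acinar and endocrine markers summed to at most 1.70 CPM in any library. Of 5 immune markers, CD68 gave nearly all reads, and the sum was 141 to 220 CPM in treated PANC1 libraries and 119.7 to 127 with vehicle, and 25.9 to 39.4 in treated BXPC3 libraries and 18.3 to 19.9 with vehicle. The pan-leukocyte marker PTPRC was at most 0.112 CPM in combination and vehicle libraries. Endothelial markers summed to at most 1.73 CPM in treated BXPC3 libraries and 9.13 to 10.8 with vehicle. Mesenchymal markers in PANC1 summed to 3005 to 3041 CPM after the combination and 4384 to 4481 with vehicle. After SR4 they summed to 4628 to 5172, and after lonidamine to 3635 to 3668. In BXPC3 they summed to 378 to 479 after SR4, 307 to 334 after lonidamine and 408 to 416 after the combination, against 322 to 374. VIM gave most of the PANC1 sum. After the combination in PANC1, ZEB1 averaged 131.5 CPM, against 61.5 with vehicle, and CDH2 100.4, against 155. FN1 gave most of the BXPC3 sum. After the combination in BXPC3, VIM averaged 133 CPM, against 64.7 with vehicle, and CDH2 2.48, against 13.8. CPM are relative to the other RNA of a library, and in bulk RNA a change within each cell and a change in which cells remained cannot be told apart. Fibroblast markers, of which COL1A1 gave nearly all reads, summed to 11.8 to 34.0 CPM in treated PANC1 libraries and 81.6 to 86.4 with vehicle, and to 12.6 to 25.4 CPM in treated BXPC3 libraries and 11.7 to 13.2 with vehicle. Whether these marker levels bear on the transporter changes was not tested.

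Promoter sequence was read from RefSeq windows of GRCh38.p14 that span 250 bases before to 50 bases after each annotated start. The table held 16 windows for 9 of the 10 genes, all but SLC7A11. Both strands were searched for the composite element TGATGNAA, which includes the form TGATGCAA, for the antioxidant response core TGACNNNGC and for the E-box CACGTG. TGATGNAA was found in 5 of the 16 windows, from 5 of the 9 genes, and in 3.62% of all 35116 windows in the table or 4.46% of 27305 genes. TGATGCAA was found in 2 of the 16 windows, those of SLC1A4 and SLC1A5, and in 0.866% of all windows. TGACNNNGC was present in 4 of the 16 windows and 13.3% of all windows, and CACGTG in 3 of the 16 and 7.26% of all windows. A match describes letters in the window and is not evidence of binding. The 5 genes with TGATGNAA are shown with that match, and they rose under all 3 treatments in both lines. SLC7A5, the gene that fell in PANC1, had no such match in its 1 window and is shown with its TGACNNNGC match. TGACNNNGC was also found in windows of SLC3A2, SLC7A1 and SLC1A5, which rose under all 3 treatments in both lines. Whether a match goes with the response was not tested. Each fragment runs 5′ to 3′ on the strand of its gene, with up to 31 bases on either side of the match. It holds at most 30 bases that lie past the start, and the match is in capitals. The SLC3A2 fragment lies wholly past the start, and its match begins at 38. Positions count from 1 at the annotated start, and negative positions lie before it.
SLC3A2, chr11:62881719-62881748, plus strand, match on the opposite strand at 38: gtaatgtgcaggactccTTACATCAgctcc
SLC7A1, chr13:29595659-29595712, minus strand, match at 8: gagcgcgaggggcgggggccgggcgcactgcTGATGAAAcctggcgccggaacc
SLC1A4, chr2:64989361-64989428, plus strand, match on the opposite strand at -7: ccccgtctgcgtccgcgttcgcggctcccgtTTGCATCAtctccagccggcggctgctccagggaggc
SLC1A5, chr19:46784873-46784942, minus strand, match at -97: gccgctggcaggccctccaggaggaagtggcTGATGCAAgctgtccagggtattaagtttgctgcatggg
SLC38A1, chr12:46266487-46266551, minus strand, match at -4: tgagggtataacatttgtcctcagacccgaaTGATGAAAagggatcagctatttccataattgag
SLC7A5, chr16:87869478-87869540, minus strand, TGACNNNGC match at -2: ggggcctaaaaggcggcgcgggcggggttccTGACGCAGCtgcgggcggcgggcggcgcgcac
The SLC1A5 match lies in the third of 3 windows, the SLC1A4 match in the second of 2, the SLC3A2 match in the first of 3 and the SLC38A1 match in the first of 2. Windows of SLC38A2, SLC6A9 and SLC43A1 held no TGATGNAA, and SLC38A2 and SLC6A9 also rose under all 3 treatments in both lines.

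Without treatment, in the model of both lines, 2 transporters were higher and 8 lower in PANC1 vehicle than in BXPC3 vehicle, where 41.3% of 13930 genes were called higher and 43% lower. SLC7A5 was higher in PANC1 by 0.15 ± 0.035 and SLC1A4 by 0.40 ± 0.086 log2. The lower ones ranged from SLC3A2, at -0.62 ± 0.041, to SLC7A11, at -2.97 ± 0.097 (edgeR, adjusted p 1.03e-26). The count of 8 includes SLC43A1, at -4.00 ± 0.29, which had 4 reads in each PANC1 vehicle library and passed the filter of this model through BXPC3, so that its difference is a description. Per kb of the authors' gene length, the highest vehicle level in PANC1 was that of SLC7A5, at 112 ± 2.78 CPM per kb, followed by SLC38A2 at 54.1 ± 2.36 and SLC1A5 at 43.0 ± 1.25. In BXPC3 vehicle the order was SLC1A5 at 153 ± 3.85 CPM per kb, SLC38A2 at 119 ± 2.75 and SLC7A5 at 93.3 ± 2.38. The lowest in both lines was SLC43A1, at 0.125 ± 0.0036 in PANC1 and 1.92 ± 0.47 CPM per kb in BXPC3 (SD, n = 3). In BXPC3 vehicle the per-kb levels of SLC43A1 and SLC1A4, the next gene up, overlapped between libraries, and no other neighbours in the vehicle orders did.

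In PANC1 after lonidamine SLC7A5 led at 186 ± 3.75 CPM per kb, and after the combination it stood at 63.0 ± 1.30, under SLC38A2 at 89.1 ± 1.51, SLC3A2 at 82.3 ± 2.47, SLC1A5 at 77.8 ± 1.15 and SLC38A1 at 75.5 ± 2.41, of which SLC1A5 and SLC38A1 overlapped. In BXPC3 SLC7A5 led after lonidamine at 489 ± 10.96 and stood at 143 ± 6.91 CPM per kb after the combination, under SLC38A2 at 313 ± 4.33, SLC1A5 at 226 ± 10.3 and SLC38A1 at 169.6 ± 1.83 (SD, n = 3).

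SLC7A11 encodes the light chain xCT, which takes up cystine in exchange for glutamate and so supplies cysteine for glutathione (chromosome 4, 138164097 to 138242349, minus strand, in the GRCh38 coordinates of the deposited tables). It had the largest change of the 10 in all 6 comparisons with vehicle. In PANC1 its libraries held 158, 152 and 183 CPM after SR4, 175, 191 and 208 after lonidamine and 281, 241 and 255 after the combination, against 11.4, 12.9 and 11.6 with vehicle. All treated libraries were above all vehicle libraries, and the combination libraries were above those of both single compounds. The changes were 3.79 ± 0.096, 4.01 ± 0.093 and 4.44 ± 0.091 log2, or 13.8-fold, 16.1-fold and 21.7-fold (edgeR, adjusted p 5.27e-23, 8.18e-24 and 1.66e-25). In BXPC3 its libraries held 689.7, 776 and 736 CPM after SR4, 748, 722 and 691 after lonidamine and 734, 716 and 711 after the combination, against 85.3, 82.2 and 93.7 with vehicle. The 3 treatments overlapped there, at changes of 3.07 ± 0.048, 3.05 ± 0.048 and 3.05 ± 0.048 log2. Ranked by log2 change, SLC7A11 was gene 39, 25 and 38 from the top of 12514 in PANC1 after SR4, lonidamine and the combination, and gene 42, 35 and 117 of 12920 in BXPC3.

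SLC7A5 encodes the LAT1 light chain, which imports leucine and other large neutral amino acids in exchange for intracellular ones (chromosome 16, 87830023 to 87869488, minus strand). In PANC1 it had 490.0, 493 and 491 CPM after SR4, 901, 873 and 869 after lonidamine and 293, 296 and 305 after the combination, against 533, 539 and 514 with vehicle. The lonidamine libraries were all above vehicle, the SR4 and combination libraries all below it, and no groups overlapped. The changes in PANC1 were -0.10 ± 0.033 after SR4, 0.74 ± 0.033 after lonidamine and -0.83 ± 0.034 log2 after the combination (edgeR, adjusted p 0.0070, 2.17e-17 and 1.32e-18). In BXPC3 it had 1109, 1050.3 and 1130.1 CPM after SR4, 2329.8, 2355 and 2255 after lonidamine and 638, 692 and 697 after the combination, against 448, 429 and 449 with vehicle. All treated BXPC3 libraries were above vehicle, and the combination was the lowest of the 3 treatments. The changes there were 1.31 ± 0.035, 2.39 ± 0.036 and 0.61 ± 0.036 log2. In both lines the order of groups other than vehicle was thus lonidamine, SR4, combination, from high to low.

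SLC3A2 encodes the heavy chain 4F2hc, also called CD98, which carries both of these light chains to the cell surface (chromosome 11, 62856102 to 62888875, plus strand). Its PANC1 libraries held 321, 356 and 333 CPM after SR4, 260.0, 247 and 259 after lonidamine and 411, 437 and 426 after the combination, against 121, 127 and 123 with vehicle. The 4 groups did not overlap, and lonidamine gave the smallest rise and the combination the largest, at 1.44 ± 0.043, 1.04 ± 0.043 and 1.78 ± 0.043 log2 for SR4, lonidamine and the combination. Its BXPC3 libraries held 472, 476 and 477 CPM after SR4, 585, 596 and 597 after lonidamine and 517, 544 and 542 after the combination, against 181, 173 and 179 with vehicle. There lonidamine gave the largest rise, 1.74 ± 0.034, against 1.42 ± 0.034 after SR4 and 1.59 ± 0.034 log2 after the combination.

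The ratio of the SLC7A5 transcript to that of SLC3A2, both per kb, moved apart from that of SLC7A11 to SLC3A2. In PANC1 the SLC7A5 ratio was 1.66, 1.51 and 1.61 after SR4, 3.78, 3.86 and 3.66 after lonidamine and 0.777, 0.739 and 0.781 after the combination, against 4.79, 4.62 and 4.56 with vehicle. All treated libraries were below vehicle, and after the combination SLC7A5 was the less abundant of the pair per kb. The mean SLC7A11 ratio in PANC1 was 0.263 ± 0.033 after SR4, 0.402 ± 0.036 after lonidamine and 0.327 ± 0.036 after the combination, against 0.0516 ± 0.0024 with vehicle. In BXPC3 the mean SLC7A5 ratio was 2.52 ± 0.097, 4.26 ± 0.12 and 1.38 ± 0.029 after SR4, lonidamine and the combination, against 2.72 ± 0.021 with vehicle. Lonidamine libraries alone lay above vehicle there. The SLC7A11 ratio there was 0.828 ± 0.046, 0.652 ± 0.033 and 0.723 ± 0.034, against 0.263 ± 0.016 with vehicle (SD, n = 3). These ratios concern transcripts and were not tested, and no protein was measured. Whether a ratio lies above or below 1 depends on the authors' gene lengths, 4.734 kb for SLC7A5 and 5.163 kb for SLC3A2.

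**Figure D3:**
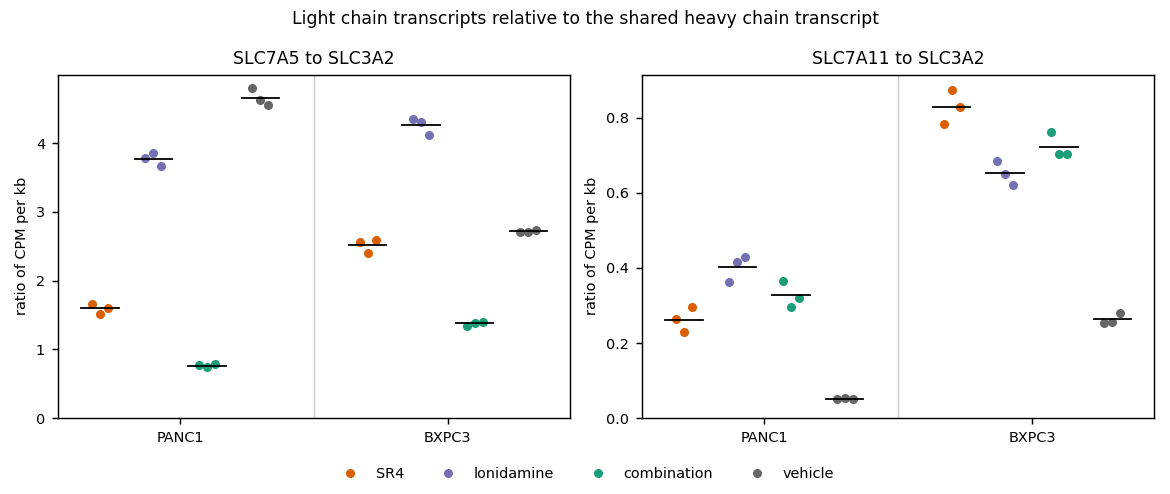
Ratio of each light chain transcript to the SLC3A2 transcript, each in CPM per kb, for SLC7A5 (left panel) and SLC7A11 (right panel), in PANC1 and BXPC3. Points are libraries and lines means of 3. At the authors' gene lengths the SLC7A5 ratio is below 1 in the 3 PANC1 combination libraries only. Every treated library has a higher SLC7A11 ratio than the vehicle libraries of its line.

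SLC7A1 encodes CAT1, which imports arginine, lysine and ornithine without a heavy chain (chromosome 13, 29509410 to 29595688, minus strand). In PANC1 it had 276, 280.5 and 289 CPM after SR4, 402, 437 and 438 after lonidamine and 308, 304 and 291 after the combination, against 159, 146 and 149.8 with vehicle. In BXPC3 it had 504, 518 and 519.6 CPM after SR4, 712, 707 and 672 after lonidamine and 524, 506 and 516 after the combination, against 312, 280.2 and 318 with vehicle. Lonidamine libraries were the highest in both lines, and the combination lay close to SR4. The changes after SR4, lonidamine and the combination were 0.89 ± 0.043, 1.49 ± 0.043 and 0.99 ± 0.043 log2 in PANC1, and 0.76 ± 0.040, 1.20 ± 0.040 and 0.76 ± 0.040 in BXPC3.

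SLC1A4 encodes ASCT1 and SLC1A5 encodes ASCT2, sodium-dependent exchangers of alanine, serine, cysteine and other small neutral amino acids, with glutamine a main substrate of ASCT2 (chromosome 2, 64988477 to 65023865, plus strand, and chromosome 19, 46774883 to 46788594, minus strand). SLC1A4 in PANC1 had 83.0, 80.6 and 84.0 CPM after SR4, 135, 129.9 and 129 after lonidamine and 160.2, 148 and 157 after the combination, against 23.6, 19.3 and 20.7 with vehicle. The 4 groups did not overlap, and the changes were 1.96 ± 0.066, 2.63 ± 0.061 and 2.87 ± 0.061 log2. In BXPC3 SLC1A4 had 66.9, 71.1 and 67.9 CPM after SR4, 78.3, 77.4 and 74.4 after lonidamine and 74.3, 76.0 and 74.2 after the combination, against 14.7, 16.8 and 13.5 with vehicle. The 3 treatments lay within 66.9 and 78.3 CPM of each other there, at changes of 2.20 ± 0.069, 2.36 ± 0.068 and 2.32 ± 0.069 log2.

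SLC1A5 changed less than SLC1A4 in every comparison with vehicle. Its means in PANC1 were 233 ± 6.21 CPM after SR4, 255 ± 5.76 after lonidamine and 259 ± 3.83 after the combination, against 143 ± 4.15 with vehicle, or 0.70 ± 0.039, 0.83 ± 0.039 and 0.85 ± 0.039 log2. In BXPC3 they were 869 ± 6.95, 1003 ± 31.1 and 750.2 ± 34.2 CPM after SR4, lonidamine and the combination, against 507 ± 12.8 with vehicle, or 0.78 ± 0.034, 0.98 ± 0.034 and 0.56 ± 0.034 log2 (SD, n = 3 for CPM).

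SLC38A1 and SLC38A2 encode SNAT1 and SNAT2, which use sodium to take up glutamine, alanine and other small neutral amino acids, and SNAT2 is known for its adaptive rise in amino acid shortage (chromosome 12, 46183063 to 46269951 and 46358189 to 46372867, both minus strand). SLC38A1 had 577, 594 and 593 CPM in PANC1 after SR4, 723, 753 and 756 after lonidamine and 769, 724 and 763 after the combination, against 369.9, 371 and 365 with vehicle. In BXPC3 it had 1059, 1122 and 1101 CPM after SR4, 1365, 1369.8 and 1342 after lonidamine and 1697, 1702 and 1668 after the combination, against 553, 543 and 602 with vehicle. Lonidamine and the combination overlapped in PANC1, while the combination was above both single compounds in BXPC3. The changes were 0.67 ± 0.035, 1.01 ± 0.034 and 1.03 ± 0.034 log2 in PANC1, and 0.95 ± 0.034, 1.26 ± 0.034 and 1.58 ± 0.034 in BXPC3.

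For SLC38A2 the combination ranked differently in the 2 lines. In PANC1 it had 847, 904 and 909 CPM after SR4, 835, 843 and 859 after lonidamine and 592, 576 and 593 after the combination, against 374, 344 and 352 with vehicle. In BXPC3 it had 1314, 1345 and 1303 CPM after SR4, 1890.3, 1916 and 1925 after lonidamine and 2090.0, 2034 and 2071 after the combination, against 767, 788 and 803 with vehicle. The combination was thus the lowest treatment in PANC1 and the highest in BXPC3, with no overlap with either single compound. The changes were 1.31 ± 0.037, 1.25 ± 0.037 and 0.72 ± 0.037 log2 in PANC1, and 0.75 ± 0.027, 1.28 ± 0.027 and 1.39 ± 0.027 in BXPC3.

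SLC6A9 encodes GlyT1, a sodium- and chloride-coupled glycine transporter (chromosome 1, 43991500 to 44031467, minus strand). In PANC1 it had 32.8, 27.9 and 29.5 CPM after SR4, 35.8, 30.4 and 30.6 after lonidamine and 28.6, 30.4 and 25.6 after the combination, against 4.14, 2.24 and 1.999 with vehicle. The vehicle values rest on 18 to 39 reads a library. The changes were 3.41 ± 0.16, 3.51 ± 0.16 and 3.32 ± 0.16 log2, next to those of SLC7A11 in size. In BXPC3 SLC6A9 had 78.0, 73.0 and 77.8 CPM after SR4, 107, 97.8 and 109 after lonidamine and 74.9, 78.3 and 87.2 after the combination, against 20.2, 17.5 and 17.3 with vehicle, at changes of 2.05 ± 0.075, 2.51 ± 0.072 and 2.12 ± 0.076. All treated libraries were above vehicle in both lines. CCDC24, on the opposite strand, overlaps the gene and had 27 to 157 counts a library, and whether its reads add to the SLC6A9 values was not tested. No source used here gives the strand setting of the counting, so reads of the overlap cannot be told apart.

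SLC43A1 encodes LAT3, which carries branched-chain amino acids and phenylalanine by facilitated diffusion without a heavy chain (chromosome 11, 57484534 to 57515786, minus strand). In BXPC3 it had 26.6, 24.8 and 26.2 CPM after SR4, 27.5, 25.3 and 30.5 after lonidamine and 21.2, 21.5 and 20.5 after the combination, against 4.95, 6.99 and 8.25 with vehicle. All treated BXPC3 libraries were above vehicle, at changes of 1.94 ± 0.12, 2.04 ± 0.12 and 1.65 ± 0.13 log2. In PANC1 it had 15, 18 and 22 reads after SR4, 6, 8 and 12 after lonidamine and 22, 14 and 13 after the combination, against 4, 4 and 4 with vehicle. It reached the filter's level there in the SR4 and combination groups only, and so had to differ from vehicle in those to be tested. Its changes in PANC1, 2.10 ± 0.40 after SR4, 0.77 ± 0.47 after lonidamine (edgeR, adjusted p 0.151) and 1.76 ± 0.41 after the combination, are given as a description.

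Set against SR4 alone, the combination held more SLC7A11, SLC3A2, SLC1A4, SLC1A5, SLC38A1 and SLC7A1 transcript in PANC1 and less SLC7A5 and SLC38A2. Of the 9 transporters above the filter's level in every group, these are 6 called higher and 2 called lower, against 33.2% and 33.4% of all genes. The largest differences were 0.91 ± 0.048 for SLC1A4, 0.66 ± 0.061 for SLC7A11, -0.72 ± 0.034 for SLC7A5 and -0.59 ± 0.036 log2 for SLC38A2. That of SLC7A1 was 0.09 ± 0.041 (edgeR, adjusted p 0.0433) and was not called without SR4 replicate 1 (0.145), SR4 replicate 2 (0.0662), combination replicate 1 (0.125) or combination replicate 2 (0.0886). In BXPC3, 3 were higher and 3 lower in the combination than after SR4 alone, against 30.3% and 30.5% of all genes. SLC38A2 was higher by 0.64 ± 0.027, SLC38A1 by 0.63 ± 0.033 and SLC3A2 by 0.17 ± 0.033, and SLC7A5 was lower, at -0.70 ± 0.035, SLC43A1 at -0.30 ± 0.10 and SLC1A5 at -0.21 ± 0.034 log2. For SLC7A11 the difference in BXPC3 was -0.03 ± 0.042, for SLC7A1 0.01 ± 0.039, for SLC6A9 0.07 ± 0.061 and for SLC1A4 0.13 ± 0.055 (edgeR, adjusted p 0.0525 for SLC1A4), none of them called.

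Set against lonidamine alone, SLC7A5 was the most reduced transporter in the combination in both lines, at -1.56 ± 0.034 log2 in PANC1 and -1.78 ± 0.035 in BXPC3 (edgeR, adjusted p 3.73e-24 and 5.07e-24). Of the 9 transporters above the filter's level in every PANC1 group, 3 were higher, 3 lower and 3 not called, against 37.1% higher and 37.5% lower over all genes. SLC3A2 was higher by 0.73 ± 0.039, SLC7A11 by 0.43 ± 0.059 and SLC1A4 by 0.24 ± 0.045, and SLC38A2 was at -0.53 ± 0.036 and SLC7A1 at -0.50 ± 0.040 log2. SLC43A1, with 6 to 12 reads in lonidamine libraries, passed the filter in PANC1 only through SR4 and the combination, and its difference of 0.99 ± 0.34 log2 is given as a description. SLC6A9 was at -0.19 ± 0.095 (adjusted p 0.0693) and was called without combination replicate 2 (0.0441). In BXPC3, 2 were higher and 6 lower, against 30.1% and 30.7% of all genes. SLC38A1 was higher by 0.31 ± 0.033 and SLC38A2 by 0.11 ± 0.026, while SLC7A1 was at -0.44 ± 0.039, SLC1A5 at -0.42 ± 0.034, SLC6A9 at -0.39 ± 0.060, SLC43A1 at -0.39 ± 0.10 and SLC3A2 at -0.15 ± 0.032 log2. SLC7A11 and SLC1A4 overlapped between the combination and lonidamine in BXPC3.

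The combination change of the transporters was lower than the sum of both single changes. The interaction, which is the combination change minus that sum on the log2 scale, was negative and called for the 9 transporters above the filter's level in PANC1 and for 10 of 10 in BXPC3, where 30% and 25.5% of all genes were called in that direction. Genes that rise under both compounds tend to this sign: of 2823 genes called higher under both in PANC1, 60.6% had a negative called interaction, with a median of -0.42, and of 3321 in BXPC3, 54.3%, with a median of -0.31. The median over the 9 transporters above the filter's level in PANC1 was -1.46 and over the 10 in BXPC3 -1.90. In PANC1, 8 of these 9 were called higher under both compounds, and SLC7A5 was not. The genes called higher under both were not matched to the transporters in the size of their single changes. SLC7A11 was at -3.35 ± 0.12 in PANC1 and -3.07 ± 0.063 in BXPC3, SLC6A9 at -3.60 ± 0.19 and -2.44 ± 0.096, and SLC7A5 at -1.46 ± 0.047 and -3.09 ± 0.050 log2. The values nearest 0 were -0.66 ± 0.048 for SLC38A1 in PANC1 and -0.64 for both SLC38A1 (SE 0.047) and SLC38A2 (SE 0.038) in BXPC3. SLC43A1 in PANC1, at -1.11 ± 0.56, was not called (edgeR, adjusted p 0.0864). Only SLC7A5 ended below the level of both single compounds in both lines.

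**Figure D4:**
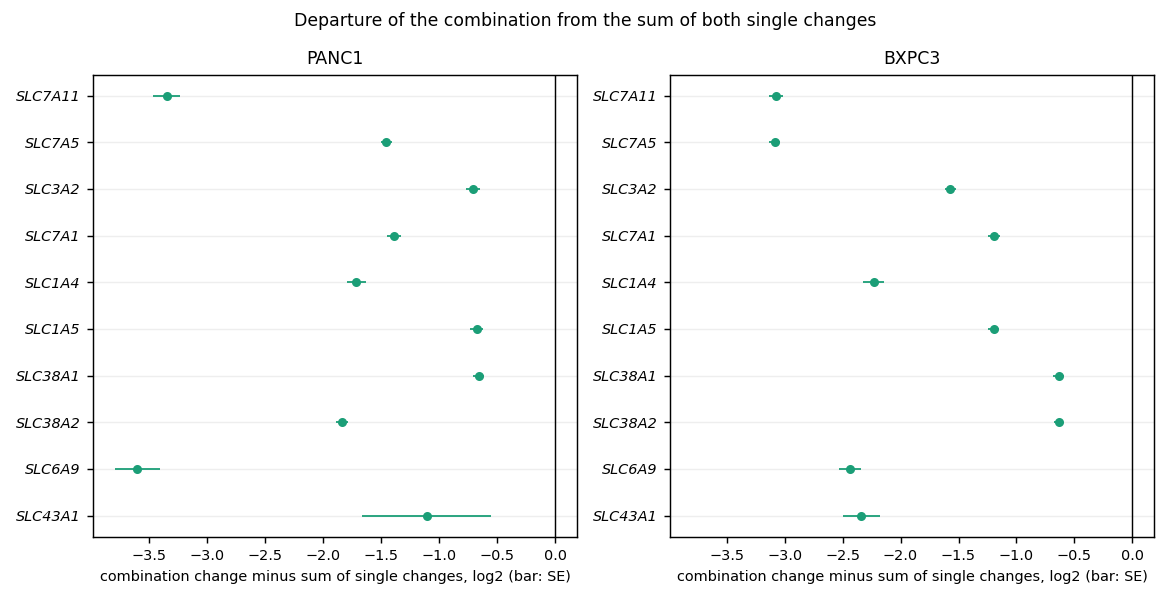
Combination change minus the sum of the SR4 and lonidamine changes, on the log2 scale, for each transporter in PANC1 (left) and BXPC3 (right), with bars of 1 standard error. All 20 values are below 0, from -3.60 for SLC6A9 to -0.64 for SLC38A1 and SLC38A2.

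The lines differed in how far the transporters changed. The difference was tested as the change in PANC1 minus the change in BXPC3, in 1 model of all 24 libraries. After SR4 the difference was called positive for 3 transporters and negative for 3, against 26.2% and 24.9% of 13930 genes. After lonidamine it was positive for 4 and negative for 3, against 23.5% and 18.2% of all genes, and after the combination positive for 6 and negative for 3, against 31.7% and 30.2%. SLC7A5, which fell in PANC1 after SR4 and after the combination and rose in BXPC3, had the most negative called difference throughout, at -1.42 ± 0.049 after SR4, -1.62 ± 0.049 after lonidamine and -1.48 ± 0.050 log2 after the combination (edgeR, adjusted p 4.34e-24, 8.03e-26 and 2.93e-25). SLC7A11 rose more in PANC1, by 0.71 ± 0.12, 0.99 ± 0.12 and 1.35 ± 0.12, and SLC6A9 by 1.35 ± 0.20, 1.03 ± 0.20 and 1.15 ± 0.20 log2. Both started lower in PANC1 vehicle, and the CPM of both stayed lower in PANC1 than in BXPC3 in every group.

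SLC38A2 rose more in PANC1 after SR4, by 0.56 ± 0.047, and less after the combination, at -0.71 ± 0.047, with 0.00 ± 0.047 after lonidamine, not called. SLC38A1 rose less in PANC1 under all 3 treatments, at -0.28 ± 0.051, -0.22 ± 0.050 and -0.59 ± 0.050. SLC3A2 rose less in PANC1 after lonidamine, at -0.67 ± 0.055, and slightly more after the combination, by 0.15 ± 0.055. SLC7A1 rose more in PANC1 after lonidamine, by 0.32 ± 0.062, and after the combination, by 0.18 ± 0.062, and SLC1A5 after the combination, by 0.25 ± 0.053 log2. For SLC1A4 the difference was 0.30 ± 0.099 after lonidamine and 0.51 ± 0.10 after the combination. After SR4 it was -0.24 ± 0.10 (edgeR, adjusted p 0.0451), a call that was lost without any 1 of these 12 libraries other than BXPC3 vehicle replicate 2 and PANC1 vehicle replicate 2. Without PANC1 vehicle replicate 1 it was -0.14 (0.291) and without the low-count filter -0.23 (0.0847). The lonidamine call of SLC1A4 was lost without BXPC3 vehicle replicate 2 (0.144) or PANC1 vehicle replicate 2 (0.0690), and under DESeq2's Wald test (0.0591). The difference of SLC1A5 after lonidamine, -0.12 ± 0.053 (edgeR, adjusted p 0.0648), was called without BXPC3 vehicle replicate 1 (0.0284) or 2 (0.0253), BXPC3 lonidamine replicate 3 (0.0108), PANC1 vehicle replicate 1 (0.0223) or PANC1 lonidamine replicate 2 (0.0424). The difference of SLC7A1 after SR4, 0.13 ± 0.063 (0.0840), was called without BXPC3 vehicle replicate 2 (0.00665) or PANC1 vehicle replicate 1 (0.0276). That of SLC43A1 after lonidamine, -1.24 ± 0.55, rests on 4 to 12 reads a library in PANC1 and is a description.

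**Figure D5:**
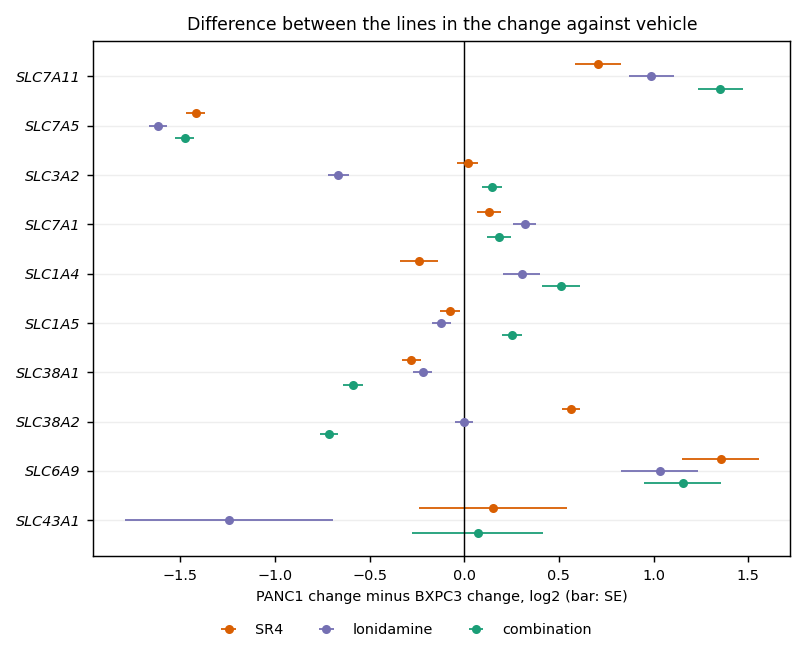
Change against vehicle in PANC1 minus that in BXPC3, on the log2 scale, for each transporter and treatment, with bars of 1 standard error. SLC7A5 lies at -1.42 or lower, SLC7A11 and SLC6A9 lie above 0 under every treatment, and SLC38A2, SLC1A4 and SLC1A5 change side between SR4 and the combination.

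From a list of 24 further carriers, 10 were tested in PANC1 and 15 in BXPC3. This list and those that follow were chosen with earlier results of these data known, so their counts are descriptions. After the combination 4 were higher and 4 lower in PANC1, where 40.1% of all genes were higher and 40.9% lower, so that the count is at the share over all genes. In BXPC3, 1 was higher and 10 lower, where 39.7% of all genes were higher and 39.5% lower. Their median change after the combination was -0.21 in PANC1 and -0.48 in BXPC3. After SR4, 1 was higher and 6 lower in PANC1 (35% and 36.7% of all genes), and 2 and 9 in BXPC3 (33.4% and 33.9%). After lonidamine, 2 were higher and 2 lower in PANC1 (35% and 34.2% of all genes), and 4 and 8 in BXPC3 (34.8% and 32.7%). SLC1A3, a glutamate and aspartate importer, fell to 15.7 ± 2.29 CPM after the combination in BXPC3, against 229 ± 4.84 with vehicle, and did not pass the low-count filter in PANC1. SLC6A14, an importer of neutral and cationic amino acids, fell to 1.41 ± 0.67 CPM in BXPC3, against 44.4 ± 3.31 with vehicle, and had no reads in PANC1 after the combination or with vehicle. SLC6A6, the taurine transporter, fell to 43.4 ± 3.18 CPM after the combination in PANC1, against 186 ± 6.35 with vehicle, and to 14.0 ± 0.46 in BXPC3, against 27.7 ± 1.86 (SD, n = 3). SLC38A4 changed by -2.31 ± 0.47 in PANC1 and -2.94 ± 0.21 in BXPC3, and SLC43A3 by -1.51 ± 0.30 and -1.63 ± 0.084 log2 after the combination.

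Of 9 lysosomal amino acid transporters, 8 were found by symbol and 7 were tested in each line. After the combination 3 were higher and 3 lower in PANC1, near the 40.1% and 40.9% over all genes, and 6 higher and 1 lower in BXPC3, against 39.7% and 39.5%. CTNS, the lysosomal cystine exporter, rose by 0.47 ± 0.094 in PANC1 and 1.40 ± 0.095 log2 in BXPC3. SLC38A9, an arginine sensor upstream of mTORC1, rose by 1.33 ± 0.11 in PANC1 and 0.45 ± 0.073 in BXPC3, and SLC15A3, a histidine and peptide carrier, changed by -1.79 ± 0.30 and -1.91 ± 0.17. PQLC2, a lysosomal exporter of cationic amino acids, was at 0.07 ± 0.097 in PANC1, not called, and rose by 0.84 ± 0.096 in BXPC3.

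Glutathione synthesis draws on the cysteine that xCT supplies. Of 15 genes of glutathione synthesis and use that were tested, 9 were higher and 6 lower after the combination in PANC1, against 40.1% and 40.9% of all genes. In BXPC3, 7 were higher and 8 lower, against 39.7% and 39.5% of all genes. CHAC1, which degrades glutathione, rose by 4.36 ± 0.091 in PANC1 and 3.19 ± 0.11 log2 in BXPC3. CTH, which makes cysteine from cystathionine, rose by 3.79 ± 0.12 and 1.67 ± 0.16, and GCLC, the catalytic subunit of the first step of glutathione synthesis, by 1.67 ± 0.064 and 3.08 ± 0.050. CBS, the enzyme before CTH, rose by 1.48 ± 0.14 in PANC1. In BXPC3 it was at 1.78 ± 0.50 CPM after the combination, against 0.029 ± 0.050 with vehicle. CBS is among the 7 called higher there. With vehicle it lay under the filter's level and so passed the filter in BXPC3 only through treated groups. Its call there is a description. ANPEP, an ectopeptidase, fell by 1.78 in PANC1 and was not tested in BXPC3.

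A list of 18 genes held transcription factors of the amino acid and oxidative stress responses and proteins that act on such factors. After the combination 16 were higher and 2 lower in PANC1, against 40.1% and 40.9% of all genes. In BXPC3, 13 were higher and 4 lower, against 39.7% and 39.5%. ATF3 rose by 6.27 ± 0.059 in PANC1 and 4.02 ± 0.099 log2 in BXPC3, DDIT3, which encodes CHOP, by 4.06 ± 0.055 and 4.50 ± 0.079, and TRIB3, a pseudokinase that binds ATF4, by 4.66 ± 0.057 and 5.09 ± 0.051. A list of 14 genes held eIF2alpha kinases, phosphatase subunits that act on eIF2alpha, amino acid sensors and DDIT4. Of these, 11 were higher and 2 lower in PANC1, against 40.1% and 40.9% of all genes. In BXPC3, 8 were higher and 3 lower, against 39.7% and 39.5%. SESN2, a leucine sensor upstream of mTORC1, rose by 3.74 ± 0.061 and 2.48 ± 0.070, PPP1R15A, which brings a phosphatase to eIF2alpha, by 3.28 ± 0.048 and 2.95 ± 0.038, and DDIT4 by 2.18 ± 0.055 and 2.49 ± 0.039. CASTOR2 changed by -2.61 ± 0.24 in PANC1 and -1.17 ± 0.44 in BXPC3. Of 12 genes whose proteins act on transporter proteins, 6 were higher and 6 lower in PANC1, against 40.1% and 40.9% of all genes, and 6 higher and 5 lower in BXPC3, against 39.7% and 39.5%, so that most of these counts are near the share over all genes. TXNIP, which promotes the internalisation of glucose transporters, rose by 1.36 ± 0.25 in PANC1 and 1.79 ± 0.040 in BXPC3, ARRDC3, an arrestin family adaptor, by 0.94 ± 0.060 and 1.93 ± 0.049, and GRB10 by 0.62 ± 0.045 and 2.30 ± 0.051. LAPTM4B, which recruits the LAT1 complex to lysosomes, changed by -1.68 ± 0.046 in PANC1 and -1.09 ± 0.039 in BXPC3, and MUC1 by -1.82 ± 0.15 and -1.30 ± 0.080.

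Genes with the pattern most like each transporter were ranked by Pearson's r of log2 CPM over the 24 libraries, after each line's mean was subtracted, among 11538 genes. The libraries of a group share their treatment, so r mainly reflects 4 treatments in 2 lines, and it is a description. SLC7A11 was most like the aminoacyl-tRNA synthetase genes GARS (r = 0.991) and CARS (0.989) and like ULBP1 (0.988). SLC6A9 was most like GARS (0.987), PCK2 (0.985) and CHAC1 (0.979), and SLC1A5 most like MARS (0.978), JDP2 (0.974) and PYCR1 (0.969). SLC1A4 was nearest to LONP1 (0.990), ALDH1L2 (0.988) and ZNF516 (0.983), and SLC38A2 to MTHFD2 (0.964), CYTH3 (0.962) and VEGFA (0.961). SLC38A1 lay nearest to HSPA13 (0.993), DESI2 (0.981) and GFPT1 (0.980), SLC7A1 to TBL1X (0.980), PHGDH (0.976) and LMO4 (0.975), and SLC3A2 to MARK3 (0.977), RNF6 (0.976) and LARS (0.975). SLC43A1 was nearest to MKX (0.921), PRELID3A (0.912) and SLC3A2 (0.909), values limited by its 4 to 22 reads a library in PANC1. SLC7A5 was nearest to CTBP2 (0.959), APP (0.928) and CAMSAP2 (0.925).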

How the data were processed

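Count tables were deposited for each line, and per the submitters' processing notes the tools were STAR 2.7.8a, Partek and DESeq2 with the GRCh38 (hg38) build. The deposited values are whole-number counts per gene made by the authors, with gene coordinates and lengths, per the file headers. No source used here states the filters, the annotation or the strand setting. Libraries were made with an mRNA kit, per the labels' protocols.

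Counts were tested with edgeR 4.0.16 in R 4.3.3, with limma 3.58.1: low-count filter at a minimum count of 10, TMM scaling, quasi-likelihood fit of 4 groups per line (12 libraries, 8 residual degrees of freedom) or 8 groups of both lines, Benjamini-Hochberg over all genes tested, threshold 0.05. Standard errors were taken as the size of the log2 change divided by the root of its F value. Levels are CPM over the genes that passed the filter. The biological coefficient of variation was 3.79% in PANC1 and 3.95% in BXPC3. All 10 transporters are named in every comparison with vehicle, and the other comparisons do not print every value. From each further list the 3 genes with the largest called change after the combination in each line are named. For likeness the 3 highest correlations are given. The transporters and all lists were chosen with earlier results of these data known. The column of the third BXPC3 SR4 library has another number than the label, and was used by its group without a number. The pipeline was tested on simulated counts. Alternatives were DESeq2's size factors, DESeq2's Wald test (1.42.0), no low-count filter, a replicate block, the compared groups alone, and leaving out each library.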

Additional observations from a re-analysis of the deposited data

Results flagged for a closer look

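The change against vehicle differed between the lines, by edgeR's quasi-likelihood test of that difference, for 6 transporters after SR4, 7 after lonidamine and 9 after the combination. Over all 13930 genes tested, 26.2% were called positive and 24.9% negative after SR4. These shares were 23.5% and 18.2% after lonidamine, and 31.7% and 30.2% after the combination. Values are the PANC1 change minus the BXPC3 change on the log2 scale. After SR4 they were 0.71 for SLC7A11, -1.42 for SLC7A5, -0.24 for SLC1A4, -0.28 for SLC38A1, 0.56 for SLC38A2 and 1.35 for SLC6A9. After lonidamine they were 0.99 for SLC7A11, -1.62 for SLC7A5, -0.67 for SLC3A2, 0.32 for SLC7A1, 0.30 for SLC1A4, -0.22 for SLC38A1 and 1.03 for SLC6A9. After the combination they were 1.35 for SLC7A11, -1.48 for SLC7A5, 0.15 for SLC3A2, 0.18 for SLC7A1, 0.51 for SLC1A4, 0.25 for SLC1A5, -0.59 for SLC38A1, -0.71 for SLC38A2 and 1.15 for SLC6A9. SLC38A2 was positive after SR4 and negative after the combination, and SLC1A4 the reverse. The SLC1A4 call after SR4 (adjusted p 0.0451) was lost in 10 of 12 fits that left out 1 library, with the replicate block (0.0834) and without the low-count filter (0.0847). Its call after lonidamine (0.0128) was lost without BXPC3 vehicle replicate 2 (0.144) or PANC1 vehicle replicate 2 (0.0690) and under DESeq2's Wald test (0.0591). The 3 differences of a gene share the vehicle libraries of both lines.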

How the results depend on the processing

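No result changed direction in a called value under the 6 kinds of alternative, and counts of all genes moved by at most 1.26 times. The replicate numbers in the labels did not pair the libraries: 0 of 18 same-numbered pairs in PANC1 and 0 of 15 in BXPC3 deviated together at a correlation over 0.1. With the replicate block, 2 transporter calls were lost, SLC7A1 for the combination against SR4 in PANC1 (0.09, edgeR adjusted p 0.0561) and SLC1A4 for PANC1 minus BXPC3 after SR4 (-0.22, 0.0834). The SLC1A4 call was also lost with no low-count filter (-0.23, 0.0847). The replicate block changed no other call. Under DESeq2's Wald test, 5 in place of 3 transporters rose less in PANC1 than in BXPC3 after lonidamine, with SLC1A5 (-0.17, adjusted p 0.00683) and SLC43A1 (-1.28, 0.0442) added, and SLC1A4 was not called (0.25, 0.0591); its size factors alone added SLC1A5 (-0.17, 0.00835). Size factors also called SLC1A4 higher in the combination than after SR4 in BXPC3 (0.13, 0.0442), as did the compared groups alone (0.12, 0.0463), and these groups alone called SLC6A9 lower in the combination than after lonidamine in PANC1 (-0.19, 0.0432). SLC1A5 was called for PANC1 minus BXPC3 after SR4 under size factors (-0.13, 0.0434) and the Wald test (-0.13, 0.0466). Values at 4 to 39 reads, those of SLC43A1 and SLC6A9 in PANC1 vehicle, are limited by depth.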
